A study of Xenopus laevis with 9 samples.

Results

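The glutathione transferases described here are the 6 genes gsto1.S, gstp1.L, gsta1.L, gsta1.S, gstm1.S and gstt1.L of the frog Xenopus laevis. They were taken by name, as every probe set whose gene symbol, without its copy suffix, is gst followed by the class letter a, k, m, o, p, t or z and a number. These 6 genes, with 1 probe set each, stand among 7531 genes that the array's annotation names with a single symbol. The genome of this species arose by joining 2 ancestral genomes, and a gene kept from both is written with the suffixes .L and .S; only the alpha class gene gsta1 was named here in both copies. By the same rule the RefSeq gene table of this species lists 12 family genes. The 6 others, gsta4.S, gstk1.L, gstk1.S, gsto2.L, gstt1-like.2.L and gstz1.L, had no probe set named for them and were not analysed here.

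Expression was measured in XLK-WG, a single cell line established from Xenopus laevis kidney. The FICZ group received 100 nM FICZ, a photoproduct of tryptophan, and the TCDD group received 100 nM TCDD, a dioxin. The DMSO group received the vehicle alone, which all 3 groups carried at 0.25%, and RNA was taken after 3 h. Each group had 3 biological replicates by the labels, each on its own 1-colour Affymetrix Xenopus array. Both compounds bind the aryl hydrocarbon receptor (AHR), a ligand-activated transcription factor, and the series asks how a frog line responds to them.

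Glutathione transferases join the tripeptide glutathione to reactive compounds, which makes them more soluble and ready for export. They are grouped into classes by sequence. The alpha, mu, pi and theta classes mostly conjugate electrophiles, whereas the omega class carries a cysteine in its active site and works as a reductase and thioltransferase. In mammals alpha class genes are known targets of AHR ligands and of the oxidative stress factor NRF2, and pi class genes are known targets of NRF2. Kidney is among the tissues in which these enzymes are abundant.

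Signals are given on a log2 scale after quantile normalization, so that a difference of 1 is a doubling, and a change is always the treatment named before it minus the one named after. A change was called when its adjusted p in limma was under 0.05, with Benjamini-Hochberg correction across the 11618 probe sets tested. All 6 members lay above the level below which probe sets were not tested (log2 4.88). Levels of different members were not compared, because each probe set has its own brightness. Signals of marker probe sets were summed and ranked within their lists, and those sums and ranks carry that limit. A lower signal in bulk RNA cannot be told apart from fewer cells that carry the transcript.

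The arrays of a group had like medians before normalization, from 6.67 to 6.87. DMSO replicate 2 stood apart and held 22.6% of the variation within groups, whereas the share of the other arrays ran from 4.89% to 14.1%. The known AHR target cyp1a1, a cytochrome P450 gene, served as a check of the labels. Its copy cyp1a1.L rose with FICZ (log2 change 4.82) and with TCDD (log2 change 3.11). In their titles the vehicle arrays bear the letters CH and the ligand arrays do not, so whatever CH stands for cannot be told apart from the vehicle. Of the kidney epithelium markers, 8 probe sets were named and 3 were bright enough to be tested (pax2.L, pax8.L and aqp3.L), while both copies of the epithelial adhesion gene epcam and cdh1.S, which encodes E-cadherin, lay under the filter. Of 8 fibroblast marker probe sets 6 were tested, among them both copies of the intermediate filament gene vim, at mean log2 signals of 13.13 and 11.94. The fibroblast markers col1a2.L and lum.L lay under the filter.

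The comparison of FICZ with DMSO asks which transcripts the tryptophan product changed within 3 h. A single glutathione transferase, the omega class gene gsto1.S, rose. The pi class gene gstp1.L had a change of like size that did not pass, and the other 4 members had changes of 0.32 or less. Of the 6 members 1 was called higher and 0 lower, against 0.525% of all tested probe sets called higher and 0.0775% called lower. An unadjusted p under 0.05 was reached by 2 of the 6, both higher, and by 7.39% of all tested probe sets. All 6 changes were above 0, with a median of 0.29, where 49.5% of all tested probe sets were above 0 and the median was -0.002.

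gsto1.S encodes the omega class enzyme. Its log2 signal was 8.51, 8.50 and 8.40 in the FICZ arrays, 8.13, 8.11 and 8.07 in the TCDD arrays, and 7.94, 7.42 and 7.87 in the DMSO arrays. Every FICZ array lay above every TCDD array, and every TCDD array above every DMSO array. This full order of the 9 arrays was found in 1 of the 6 members and in 47 of 11618 tested probe sets, or 0.405%. The mean was 8.47 ± 0.06 with FICZ and 7.74 ± 0.28 with DMSO (SD, n = 3 each). It rose 1.65-fold (log2 change 0.73, SE 0.13, 95% confidence interval 0.44 to 1.01), at an adjusted p of 0.021 by limma. The call ended when any FICZ array was left out, with limma adjusted p values of 0.14 without replicate 1, 0.14 without replicate 2 and 0.091 without replicate 3. In the same order the log2 change was 0.71, 0.71 and 0.76. Those fits called 26, 29 and 31 of all 11618 probe sets, beside 70 in the main fit. The call also ended without the variance trend (0.067), in a fit of the 2 groups alone (0.065) and without a shared variance (0.21), a test that called 4 of all 11618 probe sets. Over the 20 alternative fits the adjusted p ran from 0.0032 to 0.21.

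gstp1.L encodes the pi class enzyme, which in mammals is the main transferase of many cultured and tumour cells. Its log2 signal was 9.28, 9.13 and 9.69 in the FICZ arrays, 9.07, 8.78 and 9.09 in the TCDD arrays, and 8.75, 8.56 and 8.93 in the DMSO arrays. After normalization the FICZ arrays lay above all other arrays, and the TCDD and DMSO arrays overlapped. FICZ replicate 3 was the highest of the 9 arrays. Against DMSO the log2 change was 0.62 (SE 0.15, 95% confidence interval 0.30 to 0.94), or 1.54-fold, with an unadjusted p of 0.00094 and an adjusted p of 0.10 by limma. Centring each array on its median brought the adjusted p to 0.044, array weights to 0.032 and the replicate number of the titles as a block to 0.013. The FICZ samples carry other numbers in their descriptions, so that block rests on the choice of the titles. Without FICZ replicate 3 the change was 0.46 (adjusted p 0.50 by limma), and over the 20 alternative fits the adjusted p ran from 0.013 to 0.50. Arrays without overlap and higher with FICZ than with DMSO were found in 2 of the 6 members, gsto1.S and gstp1.L, and in 6.28% of all tested probe sets.

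**Figure D1:**
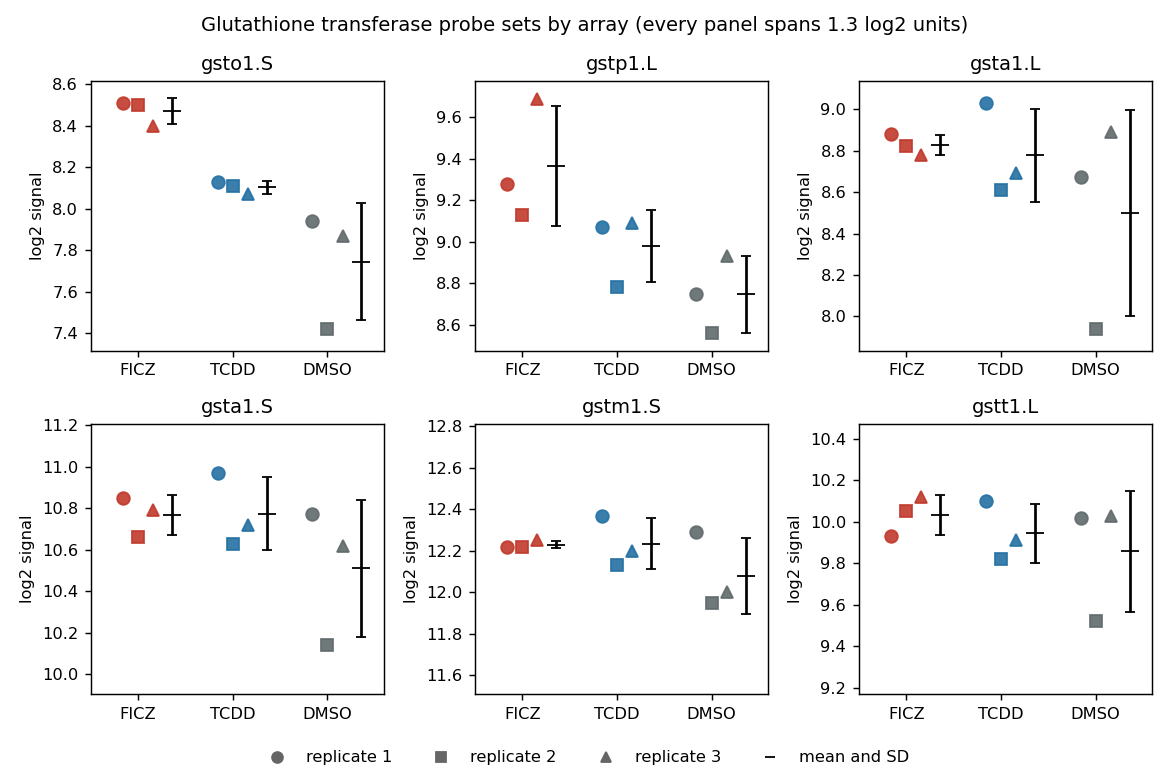
Quantile normalized log2 signal (vertical axis) of the 6 glutathione transferase probe sets in the FICZ, TCDD and DMSO arrays. Points are arrays, with a marker shape for each replicate number, and the bars give the mean and SD of 3 arrays. The 3 groups of gsto1.S do not overlap, and DMSO replicate 2 (grey square) is the lowest array in all 6 panels.

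The alpha class was measured in both copies of gsta1. The log2 signal of gsta1.L was 8.88, 8.82 and 8.78 in the FICZ arrays, 9.03, 8.61 and 8.69 in the TCDD arrays, and 8.67, 7.94 and 8.89 in the DMSO arrays. After normalization DMSO replicate 3 lay above all 3 FICZ arrays and DMSO replicate 2 lay far below every other array, so the groups overlapped. In the deposited values DMSO replicate 3 was at 8.79. That was below FICZ replicates 1 (8.91) and 3 (8.8) and above FICZ replicate 2 (8.76). The SD was 0.05 with FICZ and 0.50 with DMSO (n = 3 each). The change with FICZ was 0.32 (SE 0.19, 95% confidence interval -0.09 to 0.74), which did not pass (adjusted p 0.76 by limma).

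gsta1.S gave 10.85, 10.66 and 10.79 in the FICZ arrays, 10.97, 10.63 and 10.72 in the TCDD arrays, and 10.77, 10.14 and 10.62 in the DMSO arrays. DMSO replicate 1 lay within the FICZ values, and DMSO replicate 2 was again the lowest. Its change with FICZ was 0.26 (SE 0.14, 95% confidence interval -0.04 to 0.55; adjusted p 0.72 by limma). The interval of this copy lay within that of the .L copy. Whether a probe set for one copy also binds transcripts of the other was not tested.

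gstm1.S, the mu class gene, had the smallest spread within groups of the 6 members (SD 0.13). Its log2 signal was 12.22, 12.22 and 12.25 in the FICZ arrays, 12.37, 12.13 and 12.20 in the TCDD arrays, and 12.29, 11.95 and 12.00 in the DMSO arrays. The FICZ arrays fell inside the range of the DMSO arrays. The change of 0.15 (SE 0.08, 95% confidence interval -0.03 to 0.32) did not pass (adjusted p 0.73 by limma).

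gstt1.L, the theta class gene, had 9.93, 10.05 and 10.12 in the FICZ arrays, 10.10, 9.82 and 9.91 in the TCDD arrays, and 10.02, 9.52 and 10.03 in the DMSO arrays. DMSO replicates 1 and 3 lay among the FICZ values. The change was 0.18 (SE 0.13, 95% confidence interval -0.10 to 0.45), with an adjusted p of 0.79 by limma. For the alpha, mu and theta genes the upper ends of these intervals, from 0.32 to 0.74, bound how large a rise with FICZ these arrays leave possible.

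The comparison of TCDD with DMSO asks the same of the dioxin. No glutathione transferase was called by limma, 1 of the 6 (gsto1.S) had an unadjusted p under 0.05, and a test of each probe set without a shared variance called 0 of all 11618. Over all tested probe sets 0.0258% were called higher, 0% were called lower and 3.43% had an unadjusted p under 0.05. gsto1.S averaged 8.10 ± 0.03 with TCDD and 7.74 ± 0.28 with DMSO (SD, n = 3 each). Its log2 change was 0.36 (SE 0.13, 95% confidence interval 0.07 to 0.64), with an unadjusted p of 0.017 and an adjusted p of 0.97. It was the 1 member whose TCDD arrays all lay above the DMSO arrays, as did those of 4.24% of all tested probe sets.

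The changes of the other members with TCDD ran from 0.09 to 0.27, and the groups overlapped in each. They were 0.27 (SE 0.19) for gsta1.L, 0.26 (SE 0.14) for gsta1.S and 0.23 (SE 0.15) for gstp1.L, all at an adjusted p of 0.97 by limma. gstm1.S had a change of 0.15 (SE 0.08) and gstt1.L of 0.09 (SE 0.13), with adjusted p values of 0.97 by limma. The median over the 6 members was 0.25, beside 0.001 over all tested probe sets. These 6 changes and those with FICZ are set against the same 3 DMSO arrays, so the likeness in sign is not independent.

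The same vehicle array was the lowest of the 9 in every member. DMSO replicate 2 gave the lowest value in 6 of 6 members, where it was the lowest array in 25.9% of all tested probe sets and the highest in 25.2%. In the deposited values it was the lowest in 5, and DMSO replicate 3 was the lowest in gstm1.S (11.89, against 12.04 in DMSO replicate 2). It lay below the mean of the other 2 DMSO arrays by 0.84 on the log2 scale in gsta1.L, by 0.56 in gsta1.S, by 0.51 in gstt1.L, by 0.48 in gsto1.S, by 0.28 in gstp1.L and by 0.19 in gstm1.S. In cyp1a1.L that distance was 0.48 as well.

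Without DMSO replicate 2, the omega and pi class genes kept most of their change with FICZ, and the alpha, mu and theta genes had changes of 0.085 or less. gsto1.S had a change of 0.56 and was called (adjusted p 0.013 by limma), and gstp1.L had a change of 0.53 (adjusted p 0.20 by limma). gsta1.L had a change of 0.04 (SE 0.12), gsta1.S of 0.07 (SE 0.10), gstm1.S of 0.085 (SE 0.08) and gstt1.L of 0.007 (SE 0.09). The median over members was then 0.08 with FICZ, beside -0.004 over all tested probe sets, and 0.08 with TCDD, beside -0.001. With TCDD 4 of 6 changes stayed above 0, where 49.7% of all tested probe sets were above 0. gsto1.S had a change of 0.20 and gstp1.L of 0.14 with TCDD, and gsta1.L (-0.01) and gstt1.L (-0.08) turned below 0.

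**Figure D2:**
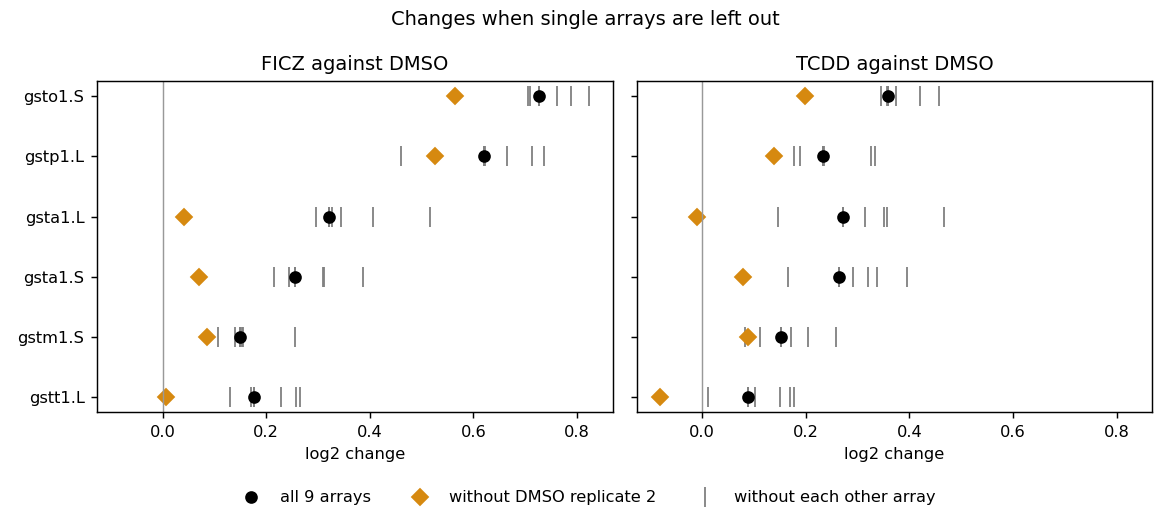
Log2 change (horizontal axis) of each member with FICZ (left) and with TCDD (right) against DMSO. Black points come from all 9 arrays, orange diamonds from the fit without DMSO replicate 2, and grey ticks from fits without each other array. With FICZ the diamonds of gsto1.S and gstp1.L stay at 0.56 and 0.53, and those of the other 4 members lie at or below 0.085.

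FICZ and TCDD were given at the same dose and time, so the ligands can be compared directly. None of the 6 pairs of values was called by limma, 2 had an unadjusted p under 0.05, and a test of each probe set without a shared variance called 0 members and 1 of all 11618 probe sets. Over all tested probe sets 0.198% were called higher with FICZ, 0.00861% were called lower and 3.08% had an unadjusted p under 0.05. gsto1.S was higher with FICZ in all 3 arrays, by 0.37 on the log2 scale (95% confidence interval 0.08 to 0.65), at an unadjusted p of 0.015 and an adjusted p of 1. gstp1.L was higher in all 3 arrays as well, by 0.39 (95% confidence interval 0.07 to 0.71), with an unadjusted p of 0.021 and an adjusted p of 1. Without FICZ replicate 3 that difference was 0.23, and in the deposited values the arrays of gstp1.L overlapped, with 9.07 in FICZ replicate 2 and 9.11 in TCDD replicate 3. Arrays without overlap and higher with FICZ were found in 5.12% of all tested probe sets. With array weights gsto1.S passed this comparison (adjusted p 0.0046 by limma), in a fit that called 355 of all 11618 probe sets. Over the 20 alternative fits the adjusted p of gsto1.S ran from 0.0046 to 1.

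The remaining members lay close together under the ligands. The FICZ minus TCDD difference was 0.05 in gsta1.L (95% confidence interval -0.36 to 0.46), -0.01 in gsta1.S (-0.30 to 0.28) and 0.09 in gstt1.L (-0.19 to 0.37). In gstm1.S it was -0.003, with the narrowest interval of the 6, from -0.18 to 0.17. These intervals do not show that the ligands act alike on these genes. They exclude differences beyond their ends at the 95% level. In cyp1a1.L the same comparison gave 1.71 (adjusted p 0.0025 by limma), and in cyp1a1.S, whose arrays overlapped, 0.57 (adjusted p 1 by limma).

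**Figure D3:**
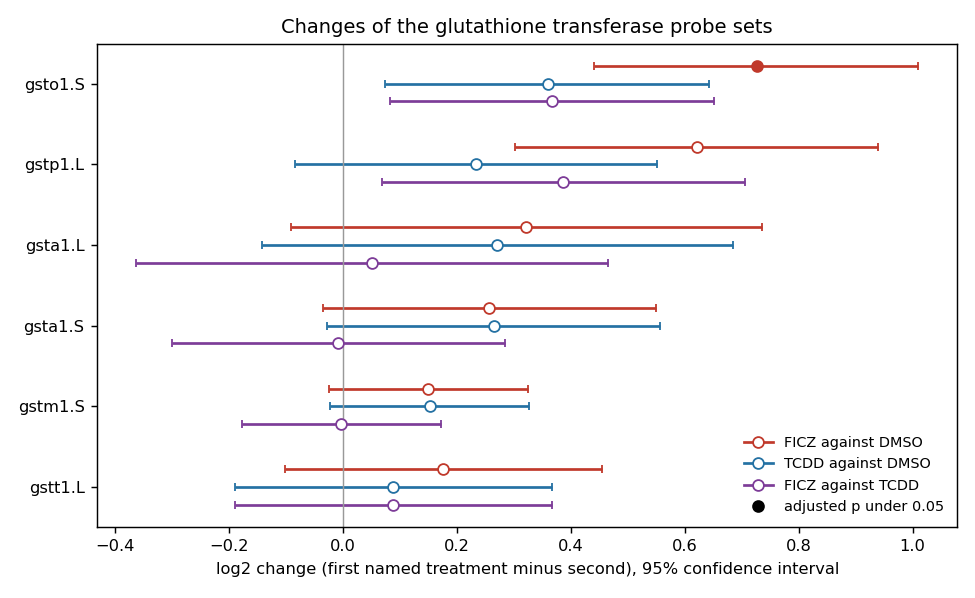
Log2 change (horizontal axis) with its 95% confidence interval for each of the 6 members in 3 comparisons. Filled points have an adjusted p under 0.05 and open points do not. The filled point is gsto1.S with FICZ against DMSO, at 0.73, and the FICZ against TCDD intervals of gsto1.S and gstp1.L lie above 0 without passing after adjustment.

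With both ligands pooled against DMSO, which sets 6 arrays against 3, no member was called by limma, 3 had an unadjusted p under 0.05 and the test without a shared variance called 0 of all 11618 probe sets. Over all tested probe sets 0.207% were called higher, 0.0172% were called lower and 6.93% had an unadjusted p under 0.05. gsto1.S had a change of 0.54 (SE 0.11, adjusted p 0.11 by limma), gstp1.L of 0.43 (SE 0.13, adjusted p 0.42 by limma) and gsta1.S of 0.26 (SE 0.12, adjusted p 0.71 by limma). Without DMSO replicate 2 these changes were 0.38, 0.33 and 0.074. All 6 ligand arrays lay above all 3 DMSO arrays in gsto1.S, as they did in 1.75% of all tested probe sets.

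Other genes of glutathione use were described from lists chosen by function. Glutathione is made by ligases, kept reduced by a reductase that draws on NADPH, and spent by peroxidases and glutaredoxins. Of 34 genes listed for its synthesis and recycling, 19 had a probe set and 26 copies were tested. With FICZ 1 rose and 0 fell, beside the 0.525% and 0.0775% of all tested probe sets given above. gpx1.L, a glutathione peroxidase gene, had a mean log2 signal of 12.36 with FICZ and 12.10 with DMSO, a change of 0.26 (SE 0.05, adjusted p 0.035 by limma). Over the fits that left out single arrays its adjusted p ran from 0.034 to 0.20 by limma, with 0.034 without TCDD replicate 1 and 0.050, at the threshold, without DMSO replicate 2. The call ended without any other array. It also ended in the deposited values (0.069), without the filter (0.059), without the variance trend (0.44), without a shared variance (0.19) and in the fit of the 2 groups alone (0.09). The other copy, gpx1.S, had a change of 0.11 with FICZ (SE 0.09, adjusted p 0.81 by limma), and its arrays overlapped. idh1.L, which encodes an NADPH producing dehydrogenase, had a change of -0.34 (adjusted p 0.65 by limma). gpx4.S, a lipid peroxide reducing peroxidase gene, had a change of 0.10, and its other copy gpx4.L of -0.003. cth.L, which encodes an enzyme of cysteine synthesis, had a change of -0.15. In all 19 of 26 changes were above 0, with a median of 0.09, where 49.5% of all tested probe sets were above 0. These changes share the same DMSO arrays, and whether the lean remains without DMSO replicate 2 was not tested.

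A list of relatives, by function or fold, took in membrane bound transferases, proteins with a glutathione transferase fold and the peroxiredoxin gene prdx6. Of this list 16 copies were tested and 0 were called with FICZ by limma, with 0 at an unadjusted p under 0.05. Of all tested probe sets 0.525% were called higher with FICZ, 0.0775% were called lower and 7.39% had an unadjusted p under 0.05. mgst1.L, a microsomal transferase gene, had a change of 0.11 with FICZ (SE 0.07). The elongation factor gene copies eef1g.S and eef1g.L had changes of 0.11 and 0.05, and the chloride channel protein gene clic1.S of 0.20. mgst3.L, another microsomal transferase gene, had a change of 0.17 with FICZ (SE 0.17) and 0.25 with TCDD (SE 0.17). The list's changes ran from -0.02 to 0.20, with a median of 0.06. No member of the list or of the synthesis list was called with TCDD by limma, and 0 in either had an unadjusted p under 0.05 there. Of all tested probe sets 0.0258% were called higher with TCDD, 0% were called lower and 3.43% had an unadjusted p under 0.05.

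Conjugate export was represented by 1 of 10 listed genes, abcb1.L, which encodes the multidrug transporter P-glycoprotein, an exporter mostly of unconjugated lipophilic compounds. It rose with FICZ, at a mean log2 signal of 9.60 with FICZ and 8.91 with DMSO, a change of 0.69 (SE 0.12, adjusted p 0.017 by limma). Without DMSO replicate 2 the change was 0.76 (adjusted p 0.0092 by limma), and without FICZ replicate 2 it was 0.63 (adjusted p 0.15 by limma). The call also ended without either other FICZ array (0.067 and 0.098), DMSO replicate 1 (0.052) or DMSO replicate 3 (0.072), and without the variance trend (0.074) or a shared variance (0.22). With TCDD its change was 0.24 (SE 0.12, adjusted p 0.97 by limma).

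Other conjugating and detoxifying enzymes gave 13 tested copies, of which 0 passed limma with FICZ. Unadjusted p values under 0.05 were seen for 2, both higher, and for 7.39% of all tested probe sets. They were tpmt.L, a thiopurine methyltransferase gene (0.40, adjusted p 0.47 by limma), and aldh3a2.L, a fatty aldehyde dehydrogenase gene (0.36, adjusted p 0.68 by limma). Of the regulators 5 were tested and 0 called by limma with either ligand, with 0 at an unadjusted p under 0.05. Over all tested probe sets 0.525% were called higher and 0.0775% lower with FICZ, and 0.0258% higher and 0% lower with TCDD. An unadjusted p under 0.05 was reached by 7.39% with FICZ and by 3.43% with TCDD. nfe2l2.L, which encodes NRF2, had a change of 0.17 with FICZ and 0.03 with TCDD. keap1.L, the gene of its inhibitor, had changes of 0.32 and 0.27, and arnt.L, the gene of the partner of AHR on DNA, had changes of 0.03 and 0.25 in the same order. nfe2l1.S, which encodes a relative of NRF2, had changes of -0.17 and -0.22, and cul3.S, which encodes the ubiquitin ligase scaffold that binds the inhibitor, of -0.12 and -0.13. The medians of these 2 lists with FICZ were 0.04 and 0.03.

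**Figure D4:**
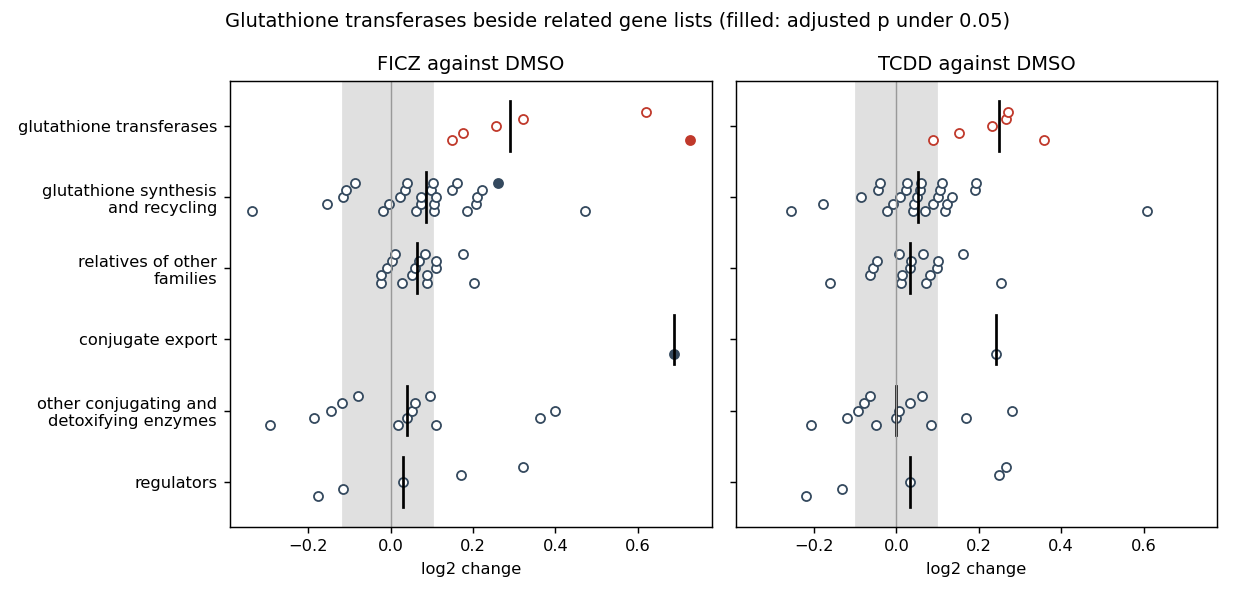
Log2 change (horizontal axis) of glutathione transferases (red) and of 5 related gene lists (dark) with FICZ (left) and TCDD (right) against DMSO. Each point is a gene copy, black bars are medians, and the grey band holds the middle 50% of all tested probe sets. With FICZ the median of the transferases is 0.29 and those of the synthesis, relatives, detoxifying and regulator lists run from 0.03 to 0.09. Without DMSO replicate 2 the median of the transferases is 0.078. The list medians use all arrays and were not refitted without that array, so the 0.078 has no matching list value.

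Markers of other cell types were read beside these changes. The summed linear signal of the 4 tested endothelium and blood markers ran from 403 to 446 in the FICZ arrays, from 256 to 328 in the TCDD arrays and from 222 to 268 in the DMSO arrays. Of these 4, 1 was called higher with FICZ by limma, against 0.525% of all tested probe sets. It was the endothelial adhesion gene pecam1.L (change 1.35, adjusted p 0.00010 by limma). Its mean log2 signal was 7.95 with FICZ and 6.60 with DMSO. The blood markers hba1.S, mpo.S and hbg1.L had changes of 0.49, 0.21 and 0.14, at limma adjusted p values of 0.76, 0.88 and 0.93. The endothelial receptor genes flt1.L and tek.S and the leukocyte gene ptprc.L lay under the filter. No marker of the lists was at 0 on all arrays of a group. The 6 tested fibroblast markers summed to between 14500 and 15000 with FICZ, 14400 and 15700 with TCDD and 15100 and 15400 with DMSO. The 3 kidney epithelium markers summed to between 129 and 144 with FICZ, 124 and 162 with TCDD and 123 and 165 with DMSO. Of 13 muscle and nerve marker probe sets 5 were tested, while acta1.S, mylpf.L, sox10.L, elavl3.L and both copies of tnnc2 and snap25 lay under the filter. The 5 tested muscle and nerve markers summed to between 1210 and 1350 with FICZ, 1250 and 1340 with TCDD and 1350 and 1440 with DMSO. Such sums mostly follow their brightest probe sets. In the muscle and nerve list that was ckm.L (mean log2 signal 10.08, the next being neurod1.L at 6.36), and among fibroblast markers vim.L (13.13). Among the endothelium and blood markers it was pecam1.L (7.16, the next being hbg1.L at 6.16). The part of the markers in the change of gsto1.S was not tested.

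The named genes whose signals followed a member most closely were found by Pearson's r over the 9 arrays, which share their groups and their labelling, and are given as a description. Closest to gsto1.S were sparc.S, the gene of a matrix glycoprotein (r = 0.98), ethe1.L, which encodes a mitochondrial dioxygenase acting on glutathione persulfide (0.96), and anxa7.L, an annexin gene (0.96). All 3 rose with FICZ against DMSO, with log2 changes of 0.58, 0.63 and 0.48 and limma adjusted p values of 0.0071, 0.014 and 0.035. Because r included the group differences, these rises are not independent of that of gsto1.S. Without DMSO replicate 2 the r values were 0.98, 0.94 and 0.94 over 8 arrays.

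Closest to gstp1.L were slc35a3.2.S, of a nucleotide sugar transporter family (r = 0.92), rela.L, which encodes a subunit of NF-kB (0.91), and atp6v1c1.L, a proton pump subunit gene (0.91). None of them was called with FICZ, at adjusted p values from 0.35 to 0.73 by limma. For gsta1.L they were dbi.S, an acyl-CoA binding protein gene (0.98), pgd.L, which encodes an NADPH producing enzyme of the pentose phosphate path (0.98), and psme1.S, a proteasome activator gene (0.98). These r values fell to 0.91, 0.86 and 0.91 without DMSO replicate 2. For gsta1.S they were paaf1.S, a proteasome associated gene (0.99), fahd2a.L (0.99) and b2m.S, the gene of the light chain of class I histocompatibility molecules (0.98).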

How the data were processed

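Total RNA of 9 cultures was labelled with biotin and read on 1-colour Affymetrix arrays. The submitters' processing notes name GCOS, without a version. How it summarised and scaled the probes is not stated there. As deposited, the values are log2 signals that stop at 0 at the low end; the log base was read from their range. Arrays give no read depth, and 3 per group limit the precision.

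Of 15611 probe sets 120 controls were left out. The others were quantile normalized, and the dimmest 25 percent by mean (below log2 4.88) were not tested. All 9 arrays entered a fit of group means in limma 3.58.1 under R 4.3.3 (eBayes with trend; 6 residual and 7.82 prior degrees of freedom), two-sided, with Benjamini-Hochberg adjustment over 11618 probe sets in each of 4 comparisons. Simulated data with known changes were used to test the fit. With 3 arrays against 3, exact permutation reaches no p below 0.1. Symbols came from the platform annotation, and 9227 of 9304 were matched to RefSeq genes. Lists were matched by symbol, with the brightest probe set for each gene copy. Tables and plots used Python 3.11.15 with pandas 2.3.3, numpy 2.4.6 and matplotlib 3.10.9.

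Named were all members, cyp1a1, every called gene of each list and up to 4 others by p in a comparison. Also named were the markers, gpx1.S, gpx4.L, and the 3 genes most like each of gsta1.L, gsta1.S, gsto1.S and gstp1.L. Members and lists were chosen with earlier results of these data known. Probe sequences and genome positions were not used here.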

Additional observations from a re-analysis of the deposited data

How the results depend on the processing

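Over 474 refits of single members, 446 kept both their direction and their side of the threshold, 6 lost a call (all gsto1.S with FICZ against DMSO), 5 gained one and 17 changed sign. Part of the 446 was fixed in advance, because several settings change only the variance or the filter and cannot move an estimate. Leaving out an array of a group not compared cannot move it either. Uncalled changes counted as kept when they stayed uncalled with the same sign. Of the 20 refits of gsto1.S with FICZ against DMSO, 14 kept the call. With FICZ against DMSO the count of called members, 1 with all arrays, was 2 after median centring, 2 with array weights and 2 with the replicate block, gstp1.L being added in each. In the same order these fits called 74, 154 and 88 of all 11618 probe sets, beside 70 in the main fit. The count of members was 0 without the variance trend, 0 in the test without a shared variance and 0 in the fit of the 2 groups alone. Over all tested probe sets those fits called 40, 4 and 49. When single arrays were left out, the count of members ranged from 0 to 1, and from 26 to 90 of all 11618 probe sets were called. The count of members was 0 without FICZ replicate 1, 2 or 3, in fits that called 26, 29 and 31 of all probe sets. Array weights gave 1 called member, gsto1.S, with FICZ against TCDD and 1 with both ligands against DMSO, where the count was otherwise 0. With those weights 355 of all 11618 probe sets were called for FICZ against TCDD, beside 24 without them. For both ligands against DMSO the count over all probe sets with those weights is not given here, so that call stands without its background. The cause of these differences was not tested. Among the signs that turned were those of gsta1.L with TCDD (0.27 with all arrays), gstt1.L with TCDD (0.09) and gstt1.L with both ligands (0.13). With array weights gstt1.L had -0.073 with TCDD and -0.022 with both ligands, and without single arrays it ranged from -0.081 to 0.18 with TCDD and from -0.037 to 0.22 with both. gsta1.L ranged from -0.009 to 0.47 with TCDD and from -0.03 to 0.18 for FICZ against TCDD. For FICZ against TCDD gsta1.S had 0.039 after median centring and 0.075 with array weights, and ranged from -0.082 to 0.091 without single arrays. There gstm1.S had 0.021 in the deposited values, 0.069 after median centring, 0.019 with cyclic loess and 0.035 with array weights, and ranged from -0.055 to 0.067. The replicate numbers share no stated source, and FICZ samples are numbered otherwise in their descriptions than in the titles used here, so which samples share a number is in doubt. Deviations of the 9 same-numbered pairs correlated from -0.27 to 0.48, above 0.1 in 2. Those of the 18 pairs with different numbers correlated from -0.36 to 0.25, above 0.1 in 7. Fits with the replicate block changed no call but that of gstp1.L. Detection calls were not used here, so signal above background is unknown.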
